A study of Saccharomyces cerevisiae with 18 samples.

Results

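Yeast cultures treated with the USA #6 extract of Equisetum arvense, the horsetail used in herbal medicine, were compared with control cultures on 2 and 4 of the 18 arrays of the series. The arrays were chosen by the extract named in their sample labels, and all 5763 yeast probe sets entered the comparison. All cultures were of the diploid Saccharomyces cerevisiae strain BY4743, which is homozygous for his3Δ1, leu2Δ0 and ura3Δ0 and heterozygous for met15Δ0 and lys2Δ0. Log-phase cultures grew in minimal medium with added uracil and received dried extract at 2.5 mg/mL for 20 min. The control is called untreated in the labels and the methods, and vehicle only elsewhere in the paper. USA #6 was a commercial water extract from which the excipient, dicalcium phosphate, had been removed through aqueous methanol. The other arrays held 5 further extracts (USA #2, USA #7, China #8, Europe #11 and India #13) at the same dose and time, and cultures of a condition are described in the methods as biological replicates. The study left USA #6 out of the contrasts in which it pooled extracts. For the contrast of all treated arrays with control, its reason was that USA #6 grouped with the controls in a principal component analysis. The paper adds that including USA #6 made no significant change to those results.

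Metal ions and lipid precursors set the activity of well-known gene groups in yeast. Zap1 is a transcription activator that is active when zinc is scarce and that turns on zinc transporter genes, other targets and its own gene. Aft1 does the same for the genes of iron uptake when iron is scarce. The genes of phospholipid synthesis are turned on by the Ino2 and Ino4 proteins and held down by the repressor Opi1 when inositol is plentiful.

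Values are log2 signals, in which a difference of 1 is a change of 2-fold, and differences are USA #6 minus control unless another pair is named. A probe set is the group of short probes that reads 1 transcript. It is called changed at an adjusted p under 0.05 in limma, in a linear model over all 18 arrays in which the 7 conditions share 1 estimate of the spread. SE is the standard error in that model, and p-values in the text are adjusted for all probe sets tested.

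With USA #6, 401 probe sets changed in limma, 6.96% of those tested, of which 235 rose (4.08%) and 166 fell (2.88%). An unadjusted p under 0.05 was reached by 1213 probe sets. The changes were mostly small, with 26 probe sets that rose and 36 that fell by more than 2-fold, and 202 that changed by less than 1.5-fold. The USA #6 and control arrays did not overlap for 400 of the 401, and they did not overlap for 28.6% of all probe sets. The median difference over all probe sets was 0.00.

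The sample titles carry 1 of 2 dates, called batch 1 and batch 2 here, and do not say what the dates mark. Control arrays 1 and 2 are of batch 1, and control arrays 3 and 4 and both USA #6 arrays of batch 2. Between the 3′ and the 5′ probe set of 18S rRNA, a measure of RNA integrity and labelling, the log2 difference was -2.78 and -2.79 on the USA #6 arrays. The control arrays gave -2.67 and -2.85 in batch 1 but -1.49 and -1.42 in batch 2, so that the USA #6 arrays lay apart from the controls of their own batch, and the part of this in the results was not tested. All 401 changed probe sets kept their direction against the controls of either batch alone. For the 400 without overlap of arrays this was fixed in advance, so it checks nothing about the batch. Of the 401, 302 were called against each. With batch as a block in the model, 9.6% of probe sets rose and 7.91% fell. Of the 401, 83 were also called in every one of the 6 fits that left out 1 USA #6 or control array, and the counts ran from 93 without USA #6 array 1 and 110 without USA #6 array 2 to 463 without control array 3. The deleted genes LEU2 and URA3 lay between 3.38 and 3.73 and between 3.13 and 3.28 on the 6 arrays. Of the heterozygous genes, LYS2 rose by 0.53 (adjusted p = 0.0378 in limma) and MET17 stood at -0.31 and was not called, while HIS3, of which his3Δ1 removes only a part, checks nothing here. Of 23 genes used mainly in haploid cells, 22 lay under the 25th percentile of all probe sets on the control arrays, for a diploid strain.

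Zinc genes held the largest falls. ZRT1, the high-affinity zinc transporter of the plasma membrane, gave 13.51, 13.60, 13.55 and 13.62 on the control arrays and 9.79 and 9.99 with USA #6. ZAP1 itself gave 9.73, 10.02, 9.79 and 10.19 on the control arrays and 6.51 and 6.94 with USA #6. The USA #6 arrays lay far below every control array for both genes. In limma, ZRT1 fell by 3.68 (SE 0.07, adjusted p = 8.56e-14), which is 12.8-fold, and ZAP1 fell by 3.21 (SE 0.16, adjusted p = 3.37e-08), which is 9.25-fold. Both falls were nearly the same within batch 2, at -3.69 and -3.27.

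The low-affinity transporter ZRT2 and the vacuolar zinc exporter ZRT3 fell too. ZRT2 gave 11.33, 11.05, 11.18 and 11.27 on the control arrays and 10.15 and 10.09 with USA #6, and fell by 1.08 (SE 0.13, adjusted p = 8.84e-05 in limma). ZRT3 gave 12.12, 12.34, 11.96 and 12.31 against 11.22 and 11.32, and fell by 0.91 (SE 0.10, adjusted p = 5.99e-05 in limma). Neither gene showed an overlap between the groups, which held for 400 of the 401 changed probe sets and so adds little. The zinc list was not uniform, with 4 of its 14 genes lower, 2 higher and 8 not called. The genes that rose, IZH4 and IZH2, encode membrane proteins of a family with a part in zinc homeostasis. IZH4 gave 7.05, 7.81, 7.56 and 8.25 on the control arrays and 9.41 and 9.53 with USA #6, a rise of 1.80 (SE 0.25, adjusted p = 4.84e-04 in limma). IZH2 rose by 0.56 (adjusted p = 0.0306 in limma), a call that was lost within batch 2 (adjusted p = 0.0622) and without 1 array (adjusted p up to 0.265). The vacuolar zinc importers ZRC1 and COT1 stood at differences of 0.03 and 0.22 and were not called.

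Among 19 other genes known as Zap1 targets, 7 fell, none rose and 12 were not called, with a median of -0.25. ZPS1, which encodes a zinc-regulated cell surface protein, gave 12.87, 13.53, 12.85 and 13.22 on the control arrays and 11.58 and 11.90 with USA #6, and fell by 1.38 (SE 0.21, adjusted p = 8.82e-04 in limma). Both USA #6 arrays lay below every control array, and such a lack of overlap held for 400 of the 401 changed probe sets. URA10, the minor orotate phosphoribosyltransferase, fell by 1.09, and ADH4, an alcohol dehydrogenase, fell by 0.62 (adjusted p = 0.00400 and 0.0299 in limma). ZRG8 (-0.62), YJL132W (-0.61), RTC4 (-0.51) and KTR6 (-0.45), the last a mannosyltransferase, fell with adjusted p of 0.0246, 0.0155, 0.0332 and 0.00116 in limma. Of these 7, ZPS1 and KTR6 stayed called in every fit without 1 array. The peroxiredoxin gene TSA1 was not called, at a difference of -0.03.

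Iron uptake genes held many of the largest rises. Of 31 genes in the iron list, 16 rose, none fell and 15 were not called, with a median of 0.41. SIT1, which encodes a transporter of siderophores, the iron chelates that microbes take up, gave 9.18, 9.29, 9.24 and 8.81 on the control arrays and 11.10 and 11.14 with USA #6. It rose by 1.99 (SE 0.21, adjusted p = 2.95e-05 in limma), which is 3.98-fold. FRE1, the main ferric and cupric reductase of the cell surface, gave 8.23, 8.39, 8.25 and 8.07 against 10.44 and 10.48, and rose by 2.23 (SE 0.22, adjusted p = 2.08e-05 in limma). For each gene the USA #6 arrays lay close together. The groups did not overlap, but this was a condition for naming the largest rises, so it adds no support.

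The ferroxidase FET3 and the iron permease FTR1 form the high-affinity uptake system. FET3 gave 11.19, 11.18, 11.21 and 11.19 on the control arrays and 12.45 and 12.42 with USA #6, a rise of 1.24 (SE 0.20, adjusted p = 0.00125 in limma). FTR1 gave 10.34, 10.41, 10.04 and 10.22 against 11.84 and 11.75, a rise of 1.55 (SE 0.15, adjusted p = 1.52e-05 in limma). Both partners thus rose in every USA #6 culture. Of the further siderophore genes, the transporters ENB1, ARN1 and ARN2 rose by 1.74, 1.21 and 0.64, and FIT2, a cell wall mannoprotein that helps retain siderophores, by 1.78 (adjusted p = 1.70e-05, 2.08e-05, 0.00110 and 0.00196 in limma). FIT1 and FIT3, of the same mannoprotein family, stood at 0.09 and 0.38 and were not called.

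The other iron genes called act mostly after uptake. TIS11, which encodes an mRNA-binding protein that lowers the transcripts of iron-using enzymes when iron is scarce, gave 7.26, 7.49, 7.04 and 7.25 on the control arrays and 8.47 and 8.58 with USA #6, a rise of 1.27 (SE 0.18, adjusted p = 6.17e-04 in limma). ISU2, a scaffold of iron-sulfur cluster assembly, rose by 0.96, CCC2, the copper pump that loads Fet3, by 0.60, SMF3, a vacuolar metal transporter, and MRS4, a mitochondrial iron carrier, by 0.54 each, HMX1, the heme oxygenase, by 0.53, and the reductases FRE6 and FRE3 by 0.45 and 0.41. In limma their adjusted p lay between 0.00763 for FRE6 and 0.0495 for MRS4. These 7 were the iron genes whose call was lost in at least 1 fit without 1 array, and FRE3 was not called within batch 2 (adjusted p = 0.0860). Against the controls of batch 1, CCC2, MRS4 and HMX1 were not called (adjusted p = 0.108, 0.0737 and 0.0701 in limma). Their differences there were 0.38, 0.29 and 0.32, where they were 0.81, 0.80 and 0.74 within batch 2. The regulators AFT1 and AFT2 stood at 0.28 and -0.10 and were not called. The vacuolar iron importer CCC1 stood at -0.30 and was not called.

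Part of the zinc and iron changes set USA #6 apart from the other extracts. USA #6 was also tested against the mean of the 5 others, and 70 probe sets differed in limma (1.21%), 27 higher (0.469%) and 43 lower (0.746%) with USA #6. The control arrays do not enter this difference but do enter its estimate of the spread, and the count was 278 from the extract arrays alone, 153 without control array 1 and 150 without control array 3, and 14 and 17 without USA #6 array 1 or 2. The difference from the other extracts was -3.52 for ZRT1 (SE 0.06, adjusted p = 2.95e-14) and -2.62 for ZAP1 (SE 0.15, adjusted p = 1.07e-07) in limma. The 12 arrays of USA #2, USA #7, Europe #11, India #13 and China #8 spanned 12.87 to 13.66 for ZRT1 and 8.81 to 9.81 for ZAP1, so no array of theirs came near the USA #6 values. ZPS1 (-1.16), ZRT2 (-1.02) and ZRT3 (-0.89) were lower too (adjusted p = 0.00486, 1.65e-04 and 6.36e-05 in limma). FET4, a low-affinity transporter of iron, zinc and copper, was lower than with the other extracts (-0.59, adjusted p = 0.0364 in limma), while it stood at 0.15 against control and was not called there. The genes that rose against control, IZH4 (0.83, adjusted p = 0.078 in limma) and IZH2 (-0.02), were not called against the other extracts. Of the 19 other Zap1 targets, only ZPS1 was.

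**Figure D1:**
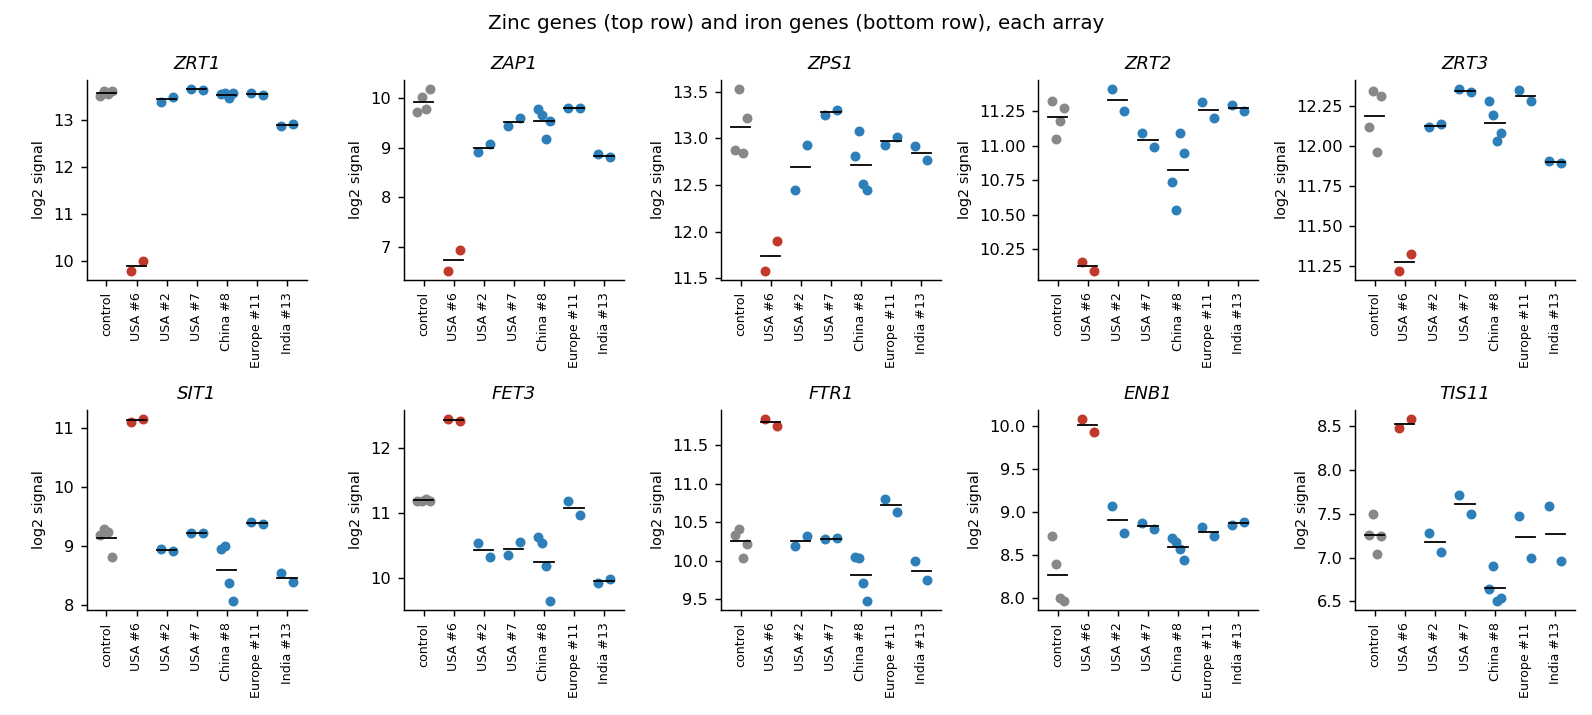
Log2 signal (vertical axes, a separate scale for each gene) of 5 zinc genes and 5 iron genes on every array, by condition. Points are arrays, grey for control, red for USA #6 and blue for the other extracts, and lines are group means. For ZRT1 the USA #6 arrays stand at 9.79 and 9.99 while all other arrays lie at 12.87 or above, and for SIT1 they stand at 11.10 and 11.14 while no other array exceeds 9.40.

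Of the 31 iron genes, 8 were higher with USA #6 than with the other extracts and none was lower. SIT1 was higher by 2.21, FET3 by 2.01, FTR1 by 1.61, TIS11 by 1.34, ENB1 and FIT2 by 1.22 each, ARN1 by 0.93 and ARN2 by 0.59, with adjusted p between 7.53e-06 for FTR1 and 0.0365 for FIT2 in limma. FET3 lay between 9.64 and 11.19 on the arrays of the other extracts, never above the highest control array, and above every control array with USA #6. FRE1 was 0.76 higher than with the other extracts and was not called (adjusted p = 0.0702 in limma). On their 12 arrays it lay between 9.10 and 10.21, above all control arrays and below both USA #6 arrays. ISU2, at a difference of -0.17 from the other extracts, was not called either.

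In the plot of both comparisons, 25 probe sets were called in each. The comparisons share the USA #6 arrays, so their values are not independent. Of the 25, 12 were higher and 8 lower in both, 3 were higher than control and lower than the other extracts, and 2 were lower than control and higher than the other extracts. SNG1, which encodes a membrane protein linked to drug resistance, belonged to the 3. It gave 9.70, 9.43, 9.04 and 9.43 on the control arrays and 10.76 and 10.49 with USA #6, but between 10.14 and 13.00 with the other extracts. It rose by 1.23 against control (adjusted p = 0.00116) and was lower than the mean of the other extracts (-0.93, adjusted p = 0.0139), both in limma. It was not lower than each of them. Against control, SNG1 stood at 0.80 with Europe #11 and between 2.10 and 3.39 with the remaining extracts. PAI3, a cytoplasmic inhibitor of the vacuolar proteinase A, was the reverse, at -0.82 against control and 0.89 against the other extracts (adjusted p = 0.0423 and 0.0462 in limma).

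**Figure D2:**
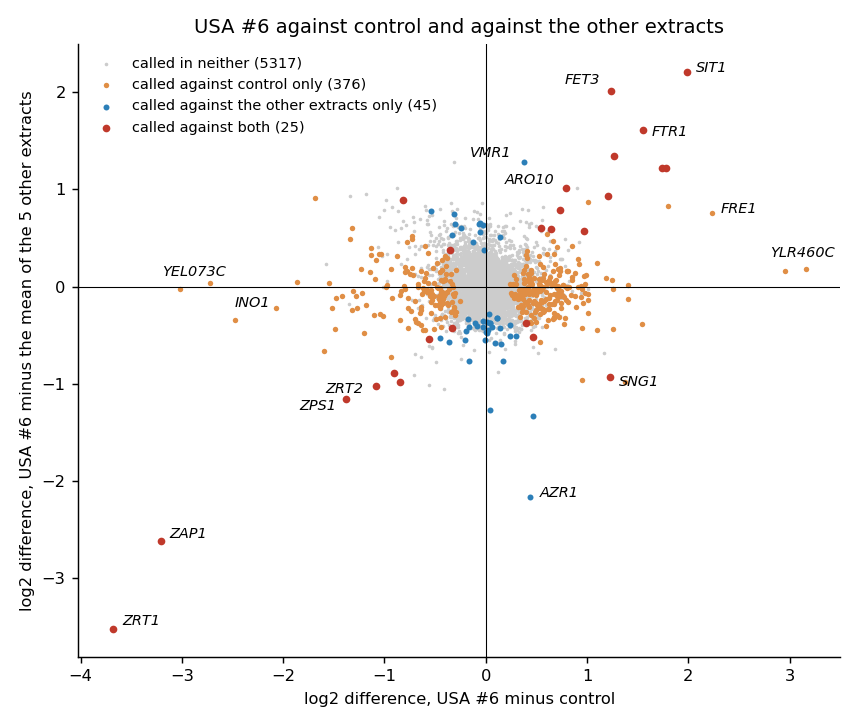
Each point is a probe set, with its log2 difference between USA #6 and control on the horizontal axis and between USA #6 and the mean of the 5 other extracts on the vertical axis, coloured by the comparisons in which it was called, with counts in the legend. ZRT1 and ZAP1 stand alone at the lower left (-3.68 and -3.52 for ZRT1), iron genes lie at the upper right, and YLR460C, YEL073C and INO1 lie near 0 on the vertical axis.

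Among the genes called only against the other extracts, 13 were higher and 32 lower with USA #6. AZR1, a plasma membrane transporter, gave 3.40, 3.89, 3.79 and 3.67 on the control arrays and 4.09 and 4.16 with USA #6. With the other extracts it lay between 3.59 and 10.09, and USA #6 differed from their mean by -2.16 (SE 0.18, adjusted p = 7.53e-06 in limma). Against control, AZR1 stood at 0.44 with USA #6, 0.02 with Europe #11, 1.02 with India #13 and between 2.64 and 6.32 with the remaining extracts. So USA #6 was not below each of them. On the control arrays AZR1 was near the floor, with 2.83% of probe sets dimmer. CTR1, the high-affinity copper transporter, stood at 0.17 against control and -0.76 against the other extracts (adjusted p = 0.00254 in limma). GRX4, a glutaredoxin that takes part in iron regulation, stood at -0.20 and -0.55 (adjusted p = 0.00235 in limma). VMR1, a vacuolar ABC transporter, stood at 0.38 and 1.28 (adjusted p = 0.00237 in limma). The arrays of the other extracts lay above all control arrays for CTR1 (8.70 to 9.35) and GRX4 (11.25 to 11.62) and below them for VMR1 (7.77 to 8.61). These 4 genes were chosen after their values were seen.

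Phospholipid genes held many of the falls. Of 28 genes of inositol and phospholipid synthesis, 15 fell, 1 rose and 12 were not called, with a median of -0.57. INO1, which encodes the first enzyme of inositol synthesis, gave 11.09 and 10.60 on the control arrays of batch 1, 10.02 and 9.94 on those of batch 2, and 7.91 and 7.95 with USA #6. It fell by 2.48 (SE 0.24, adjusted p = 1.52e-05 in limma), and by 2.04 within batch 2. ITR1, the main inositol transporter, gave 13.44, 13.26, 13.15 and 13.12 against 11.76 and 11.70, and fell by 1.52 (SE 0.13, adjusted p = 3.78e-06 in limma). Transcripts for inositol synthesis and for uptake were thus both lower, while the second transporter gene, ITR2, stood at -0.03 and was not called. INO1 and ITR1 were named among genes without overlap of arrays, so that absence adds no support.

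The enzymes that lead from CDP-diacylglycerol to phosphatidylcholine were lower at every step measured but the second decarboxylase. CDS1, which makes CDP-diacylglycerol (-1.27), CHO1, the phosphatidylserine synthase (-1.42), PSD1, the mitochondrial decarboxylase (-1.28), and the methyltransferases CHO2 (-1.04) and OPI3 (-1.18) all fell (adjusted p between 7.30e-07 for CHO2 and 0.00113 for PSD1 in limma). CHO1 gave 12.67, 12.58, 12.66 and 12.45 on the control arrays and 11.11 and 11.21 with USA #6. CHO2 gave 13.02, 13.01, 12.96 and 13.04 against 11.94 and 12. For both genes the control arrays lay close together and the USA #6 arrays well below them. PSD2, the second decarboxylase, stood at -0.37 and was not called.

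**Figure D3:**
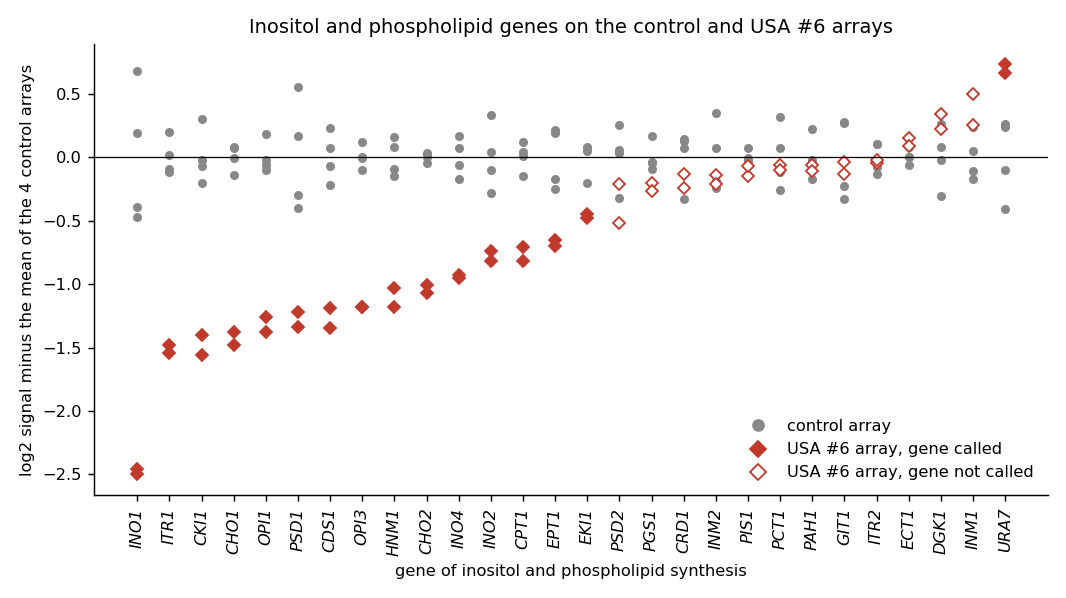
Log2 signal minus the mean of the 4 control arrays (vertical axis) for the 28 genes of inositol and phospholipid synthesis, ordered by their difference with USA #6. Grey circles are control arrays and red diamonds USA #6 arrays, filled where the gene was called, and from INO1 (-2.48) to EKI1 (-0.46) both diamonds lie below all circles.

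The Kennedy pathway, which builds phosphatidylcholine and phosphatidylethanolamine from choline and ethanolamine, was lower at its entry and last steps. HNM1, the choline transporter (-1.10), CKI1, choline kinase (-1.48), CPT1, the cholinephosphotransferase (-0.77), EKI1, ethanolamine kinase (-0.46), and EPT1, which acts last in the ethanolamine branch (-0.67), all fell (adjusted p between 1.08e-05 for CKI1 and 0.0199 for EPT1 in limma). PCT1 and ECT1, which act between those steps, stood at -0.09 and 0.12 and were not called. The regulators INO2 (-0.77), INO4 (-0.94) and OPI1 (-1.32) fell too (adjusted p = 0.00415, 1.65e-04 and 1.04e-06 in limma). URA7, a CTP synthase, rose by 0.70 (adjusted p = 0.0170 in limma). Of the 16 called genes, 12 stayed called in every fit without 1 array, and INO2, EPT1, EKI1 and URA7 did not (adjusted p up to 0.0818, 0.205, 0.107 and 0.195).

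None of the 28 phospholipid genes differed between USA #6 and the mean of the other extracts in limma. INO1 stood at -0.34 against the other extracts (SE 0.21, adjusted p = 0.421 in limma), whose arrays lay between 7.59 and 9.05. Of the 28, 24 stood below the other extracts, with a list median of -0.13 against -0.01 over all probe sets, and CHO2 came nearest to a call at -0.28 (adjusted p = 0.0540).

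SAM2, one of the genes for S-adenosylmethionine synthetase, which supplies the methyl groups for phosphatidylcholine, gave 13.11, 13.14, 13.04 and 12.79 on the control arrays and 11.46 and 11.59 with USA #6. It fell by 1.49 (SE 0.12, adjusted p = 2.98e-06 in limma), while SAM1, the other gene, was not called (adjusted p = 0.995 in limma). In the list of sulfur and methionine genes, 4 of 31 fell and none rose, with a median of -0.25. MET6, methionine synthase (-0.64), MET3, ATP sulfurylase (-0.85), and MET32, a regulator of sulfur genes (-0.64), fell as well (adjusted p = 7.64e-05, 0.0186 and 0.0204 in limma). MET3 and MET32 were not called in at least 1 fit without 1 array (adjusted p up to 0.203 and 0.275). The median of this list was -0.12 within batch 2 and -0.43 against the controls of batch 1, and MET3 was lower than with the other extracts (-0.98, adjusted p = 0.0128 in limma). Against control, MET3 stood at 1.55 with India #13 and between -0.51 and -0.03 with the remaining extracts.

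The largest rise of all belonged to YLR460C, of the quinone oxidoreductase-like family, which gave 6.51, 6.86, 7.10 and 7.10 on the control arrays and 10 and 10.11 with USA #6. Its relative YCR102C gave 6.77, 7.02, 6.81 and 6.82 against 9.78 and 9.83. They rose by 3.16 (SE 0.18, adjusted p = 7.48e-08) and 2.95 (SE 0.19, adjusted p = 1.83e-07) in limma, which is 8.95-fold and 7.73-fold. Probes for such related genes can bind both transcripts. In the list of quinone and aldehyde oxidoreductases, 6 of 23 probe sets rose and none fell, and all 6 stayed called in every fit without 1 array. The old yellow enzymes OYE3 and OYE2 rose by 1.54 and 0.67 and YNL134C by 0.80, with adjusted p of 7.63e-06, 1.98e-05 and 2.36e-04 in limma. None of the 6 differed from the mean of the other extracts, and the list's single such difference was GRE2, a methylglyoxal reductase, which was lower with USA #6 (-0.51, adjusted p = 0.0139 in limma).

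The largest falls beside the zinc and phospholipid genes belonged to 2 genes of unknown function. YEL073C gave 11.67, 11.42, 11.16 and 10.95 on the control arrays and 8.28 on each USA #6 array, and fell by 3.02 (SE 0.19, adjusted p = 1.54e-07 in limma). YHL048C-A gave 9.05, 9.19, 8.81 and 8.35 against 6.18 and 6.08, and fell by 2.72 (SE 0.17, adjusted p = 1.83e-07 in limma). USB1, an exonuclease that trims a spliceosomal RNA (-2.07), SPO11, which cuts DNA in meiosis (-1.86), MOG1, a nuclear import factor (-1.60), and UPS2, a mitochondrial lipid transfer protein (-1.55), also fell (adjusted p = 1.51e-07, 1.29e-05, 6.25e-05 and 2.46e-05 in limma). All 6 of these falls were called within batch 2 and in every fit without 1 array. HXT5, a hexose transporter, fell by 1.69 (adjusted p = 0.0106 in limma), with control values from 7.62 to 9.19, and its call was lost without 1 array (adjusted p up to 0.135).

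Several of these genes lie next to another gene that fell. In the gene order of the RefSeq annotation of assembly R64, USB1 and CKI1 are adjacent and transcribed away from each other, as are MOG1 and OPI3, and ADH4 and ZRT1 are adjacent on the same strand. Of 154 genes that fell and have a measured neighbour, 17 lay beside another that fell (11%), against 5.18% of all 5406 genes with a measured neighbour. Of 228 that rose, 19 lay beside another that rose (8.33%), against 7.66% of all. Among the pairs that rose were FRE1 and CRR1, a spore wall gene that rose by 0.97, and YLR460C and PAU4, which rose by 0.57 and was not called against the controls of batch 1 (adjusted p = 0.106).

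Of 40 probe sets for drug transport, 10 rose, none fell and 30 were not called, with a median of 0.18. RSB1, a transporter of sphingoid bases, gave 6.44, 6.20, 5.67 and 6 on the control arrays and 7.64 and 7.26 with USA #6, a rise of 1.37 (SE 0.25, adjusted p = 0.00462 in limma). The polyamine transporter TPO1 and the ABC transporter SNQ2 rose by 1.19 and 1.10 (adjusted p = 1.19e-04 and 2.94e-04 in limma). Of the 10, 4 stayed called in every fit without 1 array, and RSB1 did not (adjusted p up to 0.115). Against the mean of the other extracts, 1 member was higher and 4 were lower, and the list median was -0.08.

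Genes of arginine, branched-chain, lysine, histidine and aromatic amino acid metabolism were called higher only, unlike the sulfur and methionine genes above. Of 13 arginine probe sets, 6 rose and none fell (median 0.42), of 12 for branched-chain amino acids 3 rose and none fell (median 0.33), and of 30 for lysine, histidine and aromatic amino acids 7 rose and none fell (median 0.24). ARG3, ornithine carbamoyltransferase, gave 8.62, 9.07, 8.58 and 8.95 on the control arrays and 10.22 and 10.19 with USA #6. It rose by 1.40 (adjusted p = 0.00415 in limma), and ARG1, argininosuccinate synthase, by 0.71 (adjusted p = 6.08e-05 in limma). LEU9, which acts early in leucine synthesis, rose by 0.70 and LYS20, the first enzyme of lysine synthesis, by 0.88 (adjusted p = 2.44e-04 and 0.00631 in limma). The calls of ARG3 and LYS20 were lost without 1 array (adjusted p up to 0.0680 and 0.113).

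ARO10 and ARO9, which break down aromatic amino acids, were the members of these lists called higher with USA #6 than with the other extracts. ARO10 gave 9.95, 9.94, 9.99 and 10.04 on the control arrays and 10.76 and 10.79 with USA #6. It rose by 0.79 against control (SE 0.09, adjusted p = 6.08e-05) and was 1.02 higher than with the other extracts (SE 0.08, adjusted p = 5.14e-06) in limma. ARO9 rose by 0.73 against control and was 0.79 higher than with the other extracts (adjusted p = 8.56e-04 and 4.52e-04 in limma). The other extracts were not alike. Against control, ARO10 stood at 0.31 with USA #2 and USA #7, 0.32 with Europe #11, -0.42 with China #8 and -1.66 with India #13. ARO9 stood at 0.37, 0.37, 0.48, -0.26 and -1.24 in the same order. No array of these extracts exceeded 10.33 for ARO10 or 11.21 for ARO9. Both were called in every fit against control without 1 array.

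Of 29 genes for the use of poor nitrogen sources, 5 fell, 1 rose and 23 were not called, with a median of -0.02. Among all probe sets, 2.88% fell and 4.08% rose. DUR3, which takes up urea (-1.13), PUT4, the proline permease (-1.08), GAP1, the general amino acid permease (-0.78), and DAL3, of allantoin breakdown (-0.69), fell (adjusted p = 0.00359, 0.0204, 0.0187 and 0.0109 in limma). The control arrays of batch 1 lay above those of batch 2 for PUT4, at 6.90 and 6.41 against 5.58 and 6.04, and its difference was -0.65 within batch 2. No member of the list stayed called in every fit without 1 array. In the list of amino acid permeases, ALP1 (-0.80) and PTR2 (-0.55) fell (adjusted p = 4.82e-04 and 0.00799 in limma) and the other 13 were not called.

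Ribosome biogenesis genes were higher by a median of 0.49, with 33 of 123 higher, none lower and 90 not called. DHR2, an RNA helicase for the small subunit, gave 7.21, 7.59, 7.76 and 7.69 on the control arrays and 8.94 and 8.99 with USA #6, a rise of 1.40 (SE 0.17, adjusted p = 1.20e-04 in limma). ARX1, UTP23 and DRS1, which act in the assembly of ribosomal subunits, rose by 0.98, 0.94 and 0.85 (adjusted p = 7.93e-04, 0.0145 and 0.0247 in limma), and DRS1 was not called within batch 2 (adjusted p = 0.0712). The control arrays themselves were spread over this list, with median deviations of -0.46, -0.12, 0.33 and 0.26 from their mean. The list median was 0.80 against the controls of batch 1, with 95 members higher, and 0.20 within batch 2, with 25 members higher against 9.23% of all probe sets. Only 4 of the 33 stayed called in every fit without 1 array.

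Among the subunits of RNA polymerases I and III, 7 of 36 rose and none fell (median 0.29, and 0.17 within batch 2), led by RPA135 at 0.76 (adjusted p = 0.00160 in limma). Of 147 probe sets for cytoplasmic ribosomal proteins, none was called, and their median was 0.04. Of 71 mitochondrial ribosomal proteins, 3 fell, where 2.88% of all probe sets did, and none rose. Their median was -0.22, with 68 of 71 below control and 3 above it, where 49.1% of all probe sets stood above it. Their 3 calls, MRPL17, MRPL15 and MRPL31, stood at -0.45, -0.43 and -0.37 (adjusted p = 0.0199, 0.0417 and 0.00853 in limma), and none was called in every fit without 1 array.

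Genes of energy reserves and general stress were mostly not called against control. For glycogen, none of 20 genes was called against control (median -0.20), and GAC1 and GIP2, which target the phosphatase Glc7 to glycogen, stood at -1 and -0.95 (adjusted p = 0.378 and 0.212 in limma). For trehalose, none of 7 was called (median -0.25), with ATH1, which breaks trehalose down, at -0.49 and TPS2, which makes it, at -0.33 (adjusted p = 0.0992 and 0.502 in limma). Of 43 general stress genes 1 rose and 1 fell (median -0.29), where 4.08% and 2.88% of all probe sets did. HSP31, a chaperone and glyoxalase, rose by 0.68 (adjusted p = 1.23e-04 in limma) and PAI3 fell as given above.

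Against the mean of the other extracts, 42 of the 43 general stress genes, all 7 trehalose genes and 16 of the 20 glycogen genes were higher with USA #6, where 46.9% of all probe sets were. The medians of these differences were 0.39, 0.34 and 0.38. Of the single genes, 3 of the stress list passed the test, and none of the glycogen or trehalose lists did. The list medians against control were -0.47 with USA #2, -0.74 with USA #7, -1.03 with China #8, -0.38 with Europe #11 and -0.65 with India #13 for general stress. The value of -0.29 with USA #6 was the nearest to control of the 6, which were all set against the same control arrays. For trehalose the medians were nearly equal with USA #6 (-0.25) and Europe #11 (-0.26), and between -0.84 and -0.52 with the remaining extracts. For glycogen they were -0.20 with USA #6, -0.28 with Europe #11 and between -0.67 and -0.42 with the remaining extracts.

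Single genes of other lists were called as well, while most members of these lists were not. Over all probe sets, 4.08% rose and 2.88% fell. Among chaperones, CUR1 (-1.20), BTN2 (-1.01) and HSP82 (-0.67) fell (adjusted p = 0.00517, 0.0219 and 0.0297 in limma) and 27 of 30 probe sets were not called. In the unfolded protein response 3 of 18 genes fell, EUG1 (-0.64), LHS1 (-0.41) and ERO1 (-0.33) (adjusted p = 0.00303, 0.0495 and 0.00670 in limma). They help proteins to fold in the endoplasmic reticulum. None of these 6 was called in every fit without 1 array. In the TCA cycle 3 of 22 genes fell, ACO1 (-0.42), KGD2 (-0.33) and IDH1 (-0.32). Of 18 genes of fatty acid oxidation 2 fell, FAA1 (-0.59) and ECI1 (-0.57). Their adjusted p lay between 0.00284 for ECI1 and 0.0225 for KGD2 in limma. These 5 calls were lost in at least 1 fit without 1 array too (adjusted p up to 0.165, 0.275, 0.187, 0.0833 and 0.0572).

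**Figure D4:**
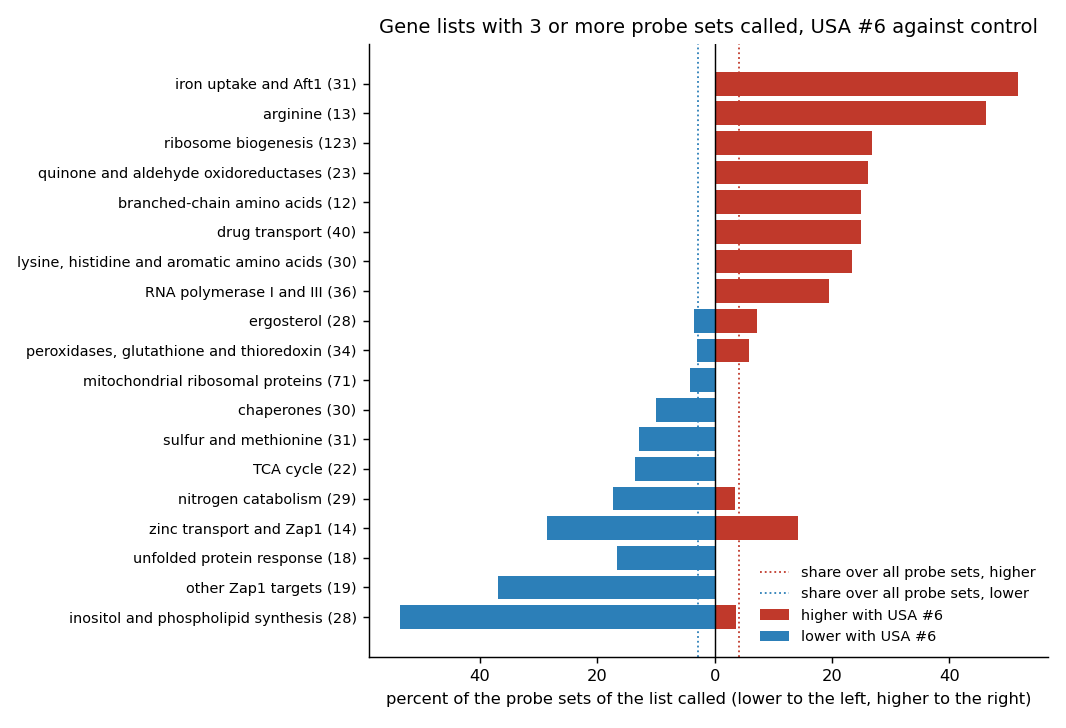
Percent of the probe sets of each gene list called lower (blue, to the left) or higher (red, to the right) with USA #6, for lists with 3 or more probe sets called and with the number of probe sets of the list in brackets. Dotted lines mark the shares over all probe sets, 2.88% lower and 4.08% higher, and the bars are longest for phospholipid synthesis (15 of 28 lower) and iron uptake (16 of 31 higher).

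Single calls in opposite directions stood in other lists. These held 12 probe sets for fermentation, 21 for phosphate, 28 for sterols and 34 for antioxidants, most of them not called. Over all probe sets, 4.08% rose and 2.88% fell. The aldehyde dehydrogenase ALD5 rose by 0.88 and the pyruvate decarboxylase PDC5 fell by 0.58 (adjusted p = 0.00116 and 0.0224 in limma). In the list of phosphate genes the transporter PHO90 rose by 0.42 and VTC3, of polyphosphate synthesis, fell by 0.41 (adjusted p = 0.0146 and 0.0116 in limma). In sterol synthesis ERG3 and ERG7 rose by 0.52 and 0.37 while ERG28 fell by 0.42 (adjusted p = 0.0155, 0.0303 and 0.0140 in limma). Of the antioxidant genes GPX2, a glutathione peroxidase, rose by 0.50 and the glutathione transferases GTO3 and GTO1 went opposite ways, at 0.55 and -0.38 (adjusted p = 0.00897, 0.0289 and 0.0494 in limma). The copper metallothionein CRS5 fell by 0.73 (adjusted p = 0.0395 in limma), and the other 10 copper genes were not called. All the calls of this paragraph were lost in at least 1 fit without 1 array, except that of ALD5 (adjusted p up to 0.0302).

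In 15 of the 53 lists no probe set was called. They held the genes of biotin, NAD, glycogen, trehalose, glycolysis, gluconeogenesis, the respiratory chain, the cytoplasmic ribosome, cell wall glucan and mannoproteins, daughter-cell separation, cyclins, histones, DNA damage and the proteasome. The members that stood farthest from control in these lists included NDE2, a mitochondrial NADH dehydrogenase, at -1.06 and CAT8, a regulator of gluconeogenesis, at -0.97 (adjusted p = 0.113 and 0.0527 in limma). In the respiratory chain list 14 of 34 genes were lower within batch 2, against 7.77% of all probe sets, and the list median was -0.23 over all controls and -0.32 within that batch. For proteasome genes the differences of the 36 members stayed between -0.20 and 0.08. A missing call does not show that these genes stayed at their control level.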

How the data were processed

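RNA of each culture was labelled with biotin and hybridized to an Affymetrix Yeast Genome 2.0 array. The authors processed the probe signals by RMA (background correction, quantile normalization, summarization), and the deposited log2 values of 5900 probe sets on 18 arrays were used as they stood. RMA and limma are listed in the submitters' processing notes, with versions not given in the sources used here. Quantile normalization hides a shift of most genes in 1 direction. The values spanned 2.73 to 14.49, with array medians of 9.55 to 9.64. The number of arrays limits the precision, and the p-values measure only the spread between these samples.

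After 137 Affymetrix control probe sets were set aside, 5763 were tested, of which 5498 had 1 gene name (12 updated through the gene ID) and 265 had none. A model with 7 groups was fitted in R 4.3.3 with limma 3.58.1 (lmFit, eBayes, Benjamini-Hochberg adjustment). USA #6 was compared with control and with the equally weighted mean of the other extracts. Lists are described by counts and medians, without a set test. The members and the 53 lists were chosen with earlier results of these data known, and RPP1, a subunit of RNase P, was taken out of the ribosomal protein list after its values were seen. Named were the 12 largest rises and falls among called genes whose arrays did not overlap, up to 4 called members of each list (all of them for zinc, iron and phospholipids, and up to 2 members of lists without a call), the genes deleted in the strain, and the 6 largest differences in each direction among genes called in both comparisons. Other genes were added after their values were seen.

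On simulated data with 5763 genes, the comparison with control called 44.8% of genes given a log2 shift of 0.5, 92.5% at a shift of 1 and 100% at 2, and 0.198% of unchanged genes. Alternatives covered the batch, the replicate number, the arrays in the fit, dim or cross-hybridizing probe sets, the normalization, the prior, the adjustment and each array left out. The planned search of promoters for motifs was not run, and no sequence is shown.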

Additional observations from a re-analysis of the deposited data

Results flagged for a closer look

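For 19 named genes the level with USA #6 differed from the mean of the other extracts in limma. Lower with USA #6 were ZRT1 (-3.52), ZAP1 (-2.62), ZPS1 (-1.16), ZRT2 (-1.02), MET3 (-0.98), SNG1 (-0.93) and ZRT3 (-0.89). Higher were SIT1 (2.21), FET3 (2.01), FTR1 (1.61), TIS11 (1.34), ENB1 (1.22), FIT2 (1.22), ARO10 (1.02), ARN1 (0.93), PAI3 (0.89), ARO9 (0.79), GTO3 (0.60) and ARN2 (0.59).

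For 11 of 164 named genes, 1 of the 4 control arrays stood far from the other 3 for the width of the group, which chance gives for about 1 group in 20. Control array 1 was the highest for OYE3 (6.58), ARN1 (7.78), GIP2 (8.15), HSP82 (12.25) and TPO1 (11.55), and the lowest for RPC31 (9.52). Control array 2 was the highest for MRPL31 (11.41) and GTO1 (7.96), array 3 the highest for FET3 (11.21), and array 4 the highest for RTC4 (8.58) and the lowest for EKI1 (8.78). All 4 control values of FET3 lay between 11.18 and 11.21.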

How the results depend on the processing

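The count of 401 probe sets changed against control was 1009 with batch as a block, 980 within batch 2, 626 with batch as a random block, 729 when control and China #8 arrays of batch 2 were dropped, 112 from the control and USA #6 arrays alone and 61 after Bonferroni correction. The count of 70 probe sets that differed from the other extracts was 268, 426, 201 and 637 in the first 4 of these, 278 from the extract arrays alone and 18 after Bonferroni correction. The cause of these shifts was not tested. Dim or cross-hybridizing probe sets left out, equal medians, quantile normalization, another prior and Affymetrix probe sets kept gave counts within 1.5 times.

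Without 1 USA #6 or control array the counts ran from 93 to 463 against control and from 14 to 153 against the other extracts. With 1 USA #6 array left, that array is assumed to vary like the other groups. In the fits that only left out arrays, no change of direction was possible for genes whose USA #6 and control arrays did not overlap. None of the 130 named genes that were called changed direction in any alternative. Without USA #6 array 1 or 2, 74 and 69 of them lost the call, and 70 did so in the fit of control and USA #6 arrays alone.

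The replicate numbers in the labels were checked for pairing, and the differences between control arrays 3 and 4 and between USA #6 arrays 1 and 2 correlated at -0.376, so the numbers did not pair these samples. The same correlation with USA #6 was 0.572 for USA #2, 0.103 for Europe #11, -0.0322 for USA #7 and -0.288 for India #13. With batch and replicate number together as a block, 1154 and 433 probe sets were called, where batch alone as a block gave 1009 and 268. With the pairing crossed in that joint block, an alternative added after the data were seen, the counts were 1222 and 461.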

Other observations

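The USA #6 arrays differed from each other less than any control pair did, with an SD of 0.151 over all probe sets against 0.277 to 0.440. Only 5 probe sets differed by more than 1 between them, against 26 to 210 in the control pairs. The genes with a name among the 5 were YKR075C (9.61 and 8.36), MTH1 (9.10 and 7.97), which takes part in glucose sensing, HXT4 (11.59 and 10.55), a glucose transporter, and GSY1 (10.38 and 9.35), a glycogen synthase.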
